A study of Homo sapiens with 4 samples.

Results

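The activin and inhibin axis was followed through 10 genes in PLC8024 cells, a human line grown from liver cancer: the ligand subunit genes INHBB, INHBE, INHBC and INHA, the ligand-binding inhibitor genes FST and FSTL3, the receptor genes ACVR1B, ACVR2A and ACVR2B, and the corepressor gene SKIL. These genes were chosen by name with their drug and control values in this table already known, and they are 10 of 26603 genes measured. Messenger RNA was sequenced in 2 libraries from cells given a drug and in 2 control libraries. The drug, its dose and how long it was given are not named, no genotype change is labelled for either group, and nothing says whether each library had a culture of its own. The spread between libraries may therefore be technical. Levels are FPKM, reads scaled by gene length and library depth, given in the order library 1 then library 2 of each group, and group values are mean ± SD with n = 2 libraries.

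Activins are dimers of beta subunits, and an alpha subunit joined to a beta subunit makes inhibin. An activin binds a type II receptor, which activates a type I receptor, and the activated receptor phosphorylates SMAD2 and SMAD3, which enter the nucleus with SMAD4. Follistatin and follistatin-like 3 bind activins outside the cell and keep them from their receptors. SKIL, also called SnoN, holds SMAD complexes in check and is itself a target of the pathway, and INHBC and INHBE are beta subunit genes known for their expression in liver. In bulk RNA, fewer cells that express a gene and less RNA per cell cannot be told apart.

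With drug, INHBB was 2.32-fold higher, FST 1.57-fold higher and SKIL 1.28-fold higher, as ratios of mean FPKM. ACVR1B, INHBE and FSTL3 were lower by smaller amounts, ACVR2A and ACVR2B overlapped between the groups, and INHBC and INHA were too low to enter the test. The fit was limma on log2(FPKM + 1) over the 11227 genes whose mean reached 1 FPKM in drug or control libraries, with the Benjamini-Hochberg adjusted p called at 0.05. It called 4 of the 8 members tested, where 13.8% of all genes tested were called. INHBB, FST and SKIL were called higher, where 7.78% of all genes were, and ACVR1B was called lower, where 6.02% were. Because the members were chosen with these values known, their calls describe them and nothing is read from the difference in shares, and their p-values are not given.

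**Figure D1:**
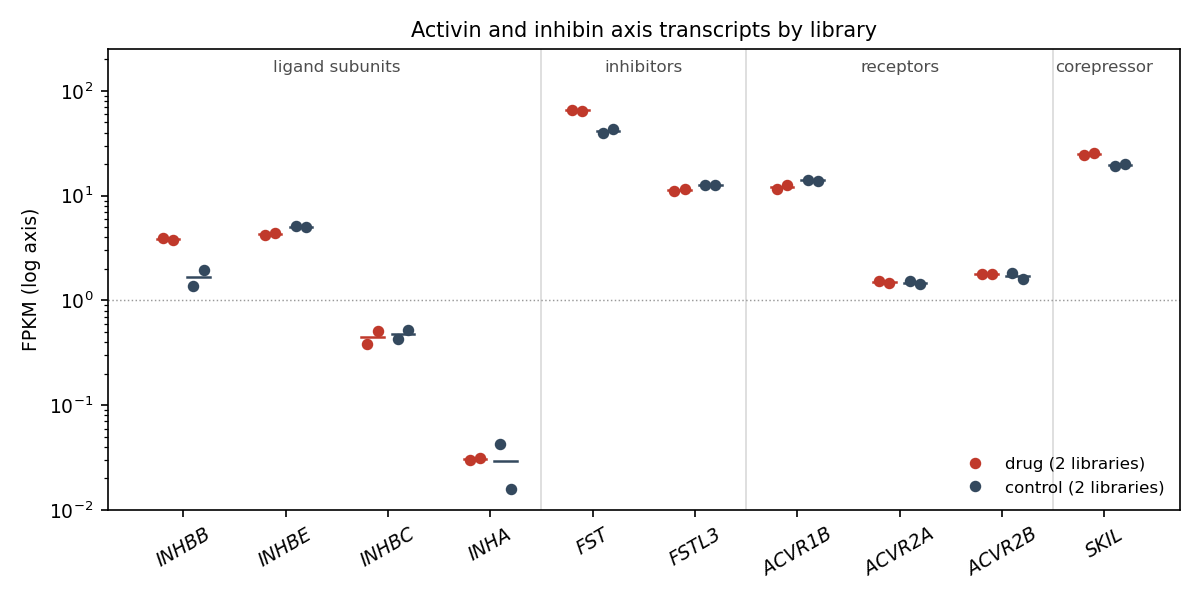
FPKM (log axis) of the 10 genes by role in 2 drug libraries (red, left) and 2 control libraries (dark, right), where points are libraries, short lines are group means and the dotted line marks 1 FPKM. INHBB, FST and SKIL have both drug points above both control points, and INHA lies far below the others.

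Upstream sequence is shown for INHBB, which changed the most, and for SKIL, the one of the 3 genes called higher whose window held SMAD and cyclic AMP motifs. Windows were the 250 bases just before the first base of the RefSeq gene in GRCh38.p14, where 9 of the 10 members have an entry. The printed runs are on the plus strand and stop before the first base of the GENCODE 29 gene too, which leaves 213 bases for SKIL. Capitals mark the motifs found on either strand: CAGAC (the SMAD box; read as GTCTG on the other strand), TGACGTCA (the cyclic AMP response element) and GGGCGG (the GC box; CCGCCC on the other strand, with overlapping copies counted). The printed runs are chr2:120345886-120346135 for INHBB and chr3:170357465-170357677 for SKIL.
INHBB: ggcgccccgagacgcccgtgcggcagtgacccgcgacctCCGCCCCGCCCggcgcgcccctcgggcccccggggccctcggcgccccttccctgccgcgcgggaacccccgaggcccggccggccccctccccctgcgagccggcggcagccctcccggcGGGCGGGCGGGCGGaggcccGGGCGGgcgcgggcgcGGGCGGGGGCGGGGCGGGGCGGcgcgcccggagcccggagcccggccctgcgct
SKIL: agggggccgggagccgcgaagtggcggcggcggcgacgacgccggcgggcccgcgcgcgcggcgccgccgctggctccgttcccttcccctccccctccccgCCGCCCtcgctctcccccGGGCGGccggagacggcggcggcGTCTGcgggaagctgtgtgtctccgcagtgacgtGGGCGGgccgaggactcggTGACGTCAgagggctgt

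The 250-base INHBB window was 89.6% G and C and held 10 GC boxes, against 2 in the FST window, which was 60.0% G and C, and 3 in the SKIL window, which was 78.4% G and C. Much of the FST window lies inside the longer GENCODE 29 gene. Over 35116 promoters of the same length the median was 58.0% and the quartiles 46.4% and 68.0%, and 42.6% held a GC box. SKIL alone of these 3 held a SMAD box, 107 bases before the gene's first base, and 38.0% of all promoters hold one. Among members not called higher, INHA, INHBC and a second ACVR1B window also held a SMAD box. The INHA window and this second ACVR1B window lie wholly inside the GENCODE 29 gene. The first ACVR1B window was 82.8% G and C and that of FSTL3 80.0%. SKIL also held TGACGTCA, 54 bases before the first base, as did 1.6% of all promoters. No window of the 9 members held the palindrome GTCTAGAC (0.2% of all promoters) or the C/EBP-ATF element TGATGNAAN (3.1%), and the last was searched because INHBE is known as a target of ATF4, but INHBE has no entry. TGACGTCA and the GC box were added to the search after the sequences had been seen. A match is a run of letters and not a measured binding site.

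INHBB encodes the beta B subunit, which pairs with itself to make activin B. It had 3.98 and 3.75 FPKM in drug libraries, from 514 and 465 reads, against 1.37 and 1.97 FPKM in control libraries, from 125 and 244 reads. Both drug libraries lay above both controls, and the control libraries were much further from each other than the drug libraries were. The exact Poisson 95% interval, which covers counting error only, was 1.14 to 1.63 FPKM in control 1 and 1.73 to 2.23 FPKM in control 2, so the controls differed by more than read counting. Only 4.42% of all genes tested, and 7.38% of the 4497 genes with a mean of 1 to 5 FPKM, had a wider gap between the control libraries than INHBB on the log2 scale. The group means were 3.86 ± 0.163 FPKM with drug and 1.67 ± 0.427 FPKM in control (log2 fold change 0.87 ± 0.12 SE). The FPKM + 1 scale understates the change of a gene this low, and DESeq2 on recovered reads gave a log2 fold change of 1.17. Leaving out drug 1 (log2 fold change 0.84) or drug 2 (0.91) ended the limma call, and leaving out control 1 (0.71) or control 2 (1.04) did not. Without the filter on low values the call was lost as well. In the authors' deposited table INHBB is the only member marked UP, at a log2 fold change of 1.17, where 42 of all 26603 genes are.

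INHBE encodes the beta E subunit, from which activin E is made. It had 4.20 and 4.39 FPKM in drug libraries, against 5.17 and 4.99 FPKM in control libraries. Drug libraries lay below controls, and the mean was 4.29 ± 0.134 FPKM with drug and 5.08 ± 0.125 FPKM in control (log2 fold change -0.20 ± 0.05 SE), which limma did not call. With FPKM rescaled by TMM factors (trimmed means of log ratios) INHBE was called lower, at -0.23. INHBC, which encodes the beta C subunit, had 0.388 and 0.509 FPKM from 50 and 63 reads in drug libraries, against 0.427 and 0.526 FPKM from 39 and 65 reads in control libraries. The groups overlapped. INHBC lies upstream of INHBE on the same strand of chromosome 12, and the gap between them is 1495 bases.

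INHA encodes the alpha subunit, the one part that inhibin has and activins lack. It had 2 and 2 reads in drug libraries and 2 and 1 reads in control libraries, or at most 0.0429 FPKM. That is under the 3 reads that a count of 0 allows, so no change was detectable at this depth, and of the dimers in the axis' name the subunit specific to inhibin was at the limit of detection. INHBA, the beta A subunit gene, was not analysed here.

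The balance of beta subunit transcripts differed between the groups. INHBB made up 46.5% and 43.4% of the summed FPKM of INHBB, INHBE and INHBC in drug libraries, against 19.6% and 26.3% in control libraries. INHBE made up 49.0% and 50.7% with drug, against 74.2% and 66.7% in control. INHBE and INHBB were thus near equal with drug, at 1.05 and 1.17 INHBE per INHBB, while in control INHBE led at 3.78 and 2.53 per INHBB. The sum of the beta subunits was 8.60 ± 0.0562 FPKM with drug and 7.22 ± 0.372 FPKM in control.

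**Figure D2:**
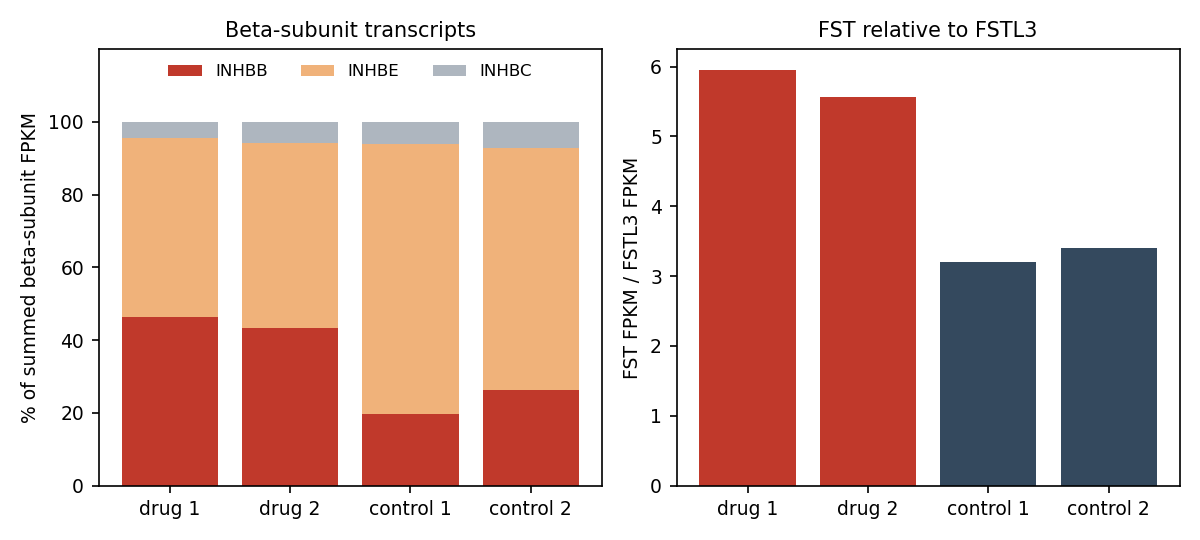
Left, the share of INHBB, INHBE and INHBC in their summed FPKM (%) for each library, and right, the ratio of FST to FSTL3 FPKM, with drug libraries before controls. INHBB takes 43.4% to 46.5% with drug and 19.6% to 26.3% in control, and the FST to FSTL3 ratio is 5.57 to 5.95 with drug and 3.20 to 3.41 in control.

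FST encodes follistatin, the main secreted activin antagonist, and was the most abundant member. It had 66.3 and 64.6 FPKM in drug libraries, from 7355 and 6874 reads, against 40.1 and 43.2 FPKM in control libraries, from 3145 and 4588 reads. Both drug libraries stood well above both controls. On the log2 scale 25.2% of all genes tested had a wider gap than FST between the control libraries, and 62.6% between the drug libraries. The Poisson 95% intervals of control 1 (38.7 to 41.5 FPKM) and control 2 (41.9 to 44.4 FPKM) did not overlap. The means were 65.5 ± 1.26 FPKM with drug and 41.6 ± 2.20 FPKM in control (log2 fold change 0.64 ± 0.04 SE). FST was the only member called under each alternative run, with log2 fold changes from 0.59 to 0.69. It stood at or above 98.0% of all genes in the table with drug and 96.6% in control.

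FSTL3, the follistatin relative that also binds activins, went the other way. It had 11.1 and 11.6 FPKM in drug libraries, against 12.5 and 12.7 FPKM in control libraries, with no overlap (log2 fold change -0.14 ± 0.04 SE, not called). It was called lower with TMM-scaled FPKM, at -0.17. The ratio of FST to FSTL3 was 5.95 and 5.57 in drug libraries, against 3.20 and 3.41 in control libraries. FST was also higher relative to the summed beta subunits, with 7.75 and 7.47 FPKM per FPKM of beta subunit in drug libraries, against 5.76 and 5.77 in control libraries. Relative to INHBB alone it was lower with drug, at 16.7 and 17.2 per INHBB, against 29.3 and 21.9 in control libraries. FST and FSTL3 each had a higher FPKM than the 3 beta subunits summed, in every library.

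ACVR1B encodes the type I receptor of activins, also known as ALK4. It had 11.6 and 12.5 FPKM in drug libraries, against 14.2 and 13.9 FPKM in control libraries. Drug libraries lay below controls, and the difference was small (12.1 ± 0.642 FPKM with drug and 14.1 ± 0.204 FPKM in control, log2 fold change -0.20 ± 0.05 SE). Its limma call did not survive the loss of any 1 of the 4 libraries: the log2 fold change was -0.15 when drug 1 was left out, -0.25 for drug 2, -0.19 for control 1 and -0.22 for control 2. The type II receptor genes are the next step outward. ACVR2A had 1.53 and 1.48 FPKM in drug libraries, against 1.53 and 1.42 FPKM in control libraries, and ACVR2B had 1.81 and 1.80 FPKM in drug libraries, against 1.82 and 1.59 FPKM in control libraries. Both overlapped between the groups, with log2 fold changes of 0.02 ± 0.08 SE for ACVR2A and 0.05 ± 0.08 SE for ACVR2B. The direction of ACVR2A turned without control 2 (-0.015), with TMM-scaled FPKM (-0.0086), with edgeR on recovered reads (-0.0073) and with DESeq2 (-0.0046), and that of ACVR2B without control 2 (-0.01). Neither was called in any of them.

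Per length, ACVR1B stood 3.49-fold and 3.83-fold above the summed type II receptors in drug libraries, against 4.24-fold and 4.62-fold in control libraries. ACVR2B had 1143 and 1092 reads with drug and 816 and 962 reads in control, over 15.7 kb of annotated exons. ACVR2A shares 430 exon bases with ORC4 on the opposite strand. ORC4 had 10.4 and 10.5 FPKM in drug libraries and 10.6 and 10.1 FPKM in control libraries, and since the strand setting of the read counting is not given in the sources used here, reads of this stretch could belong to either gene.

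SKIL had 24.5 and 25.6 FPKM in drug libraries, from 8004 and 8050 reads, against 19.2 and 20.1 FPKM in control libraries, from 4436 and 6289 reads. Drug libraries were above controls by several times the gap within either pair (25.1 ± 0.816 FPKM with drug and 19.6 ± 0.642 FPKM in control, log2 fold change 0.34 ± 0.04 SE). The limma call was lost without control 1 (log2 fold change 0.31) and without drug 2 (0.31). SKI, its close relative, had 6.57 and 8.04 FPKM in drug libraries, against 6.80 and 6.65 FPKM in control libraries. SKI overlapped between the groups (limma adjusted p = 0.488).

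**Figure D3:**
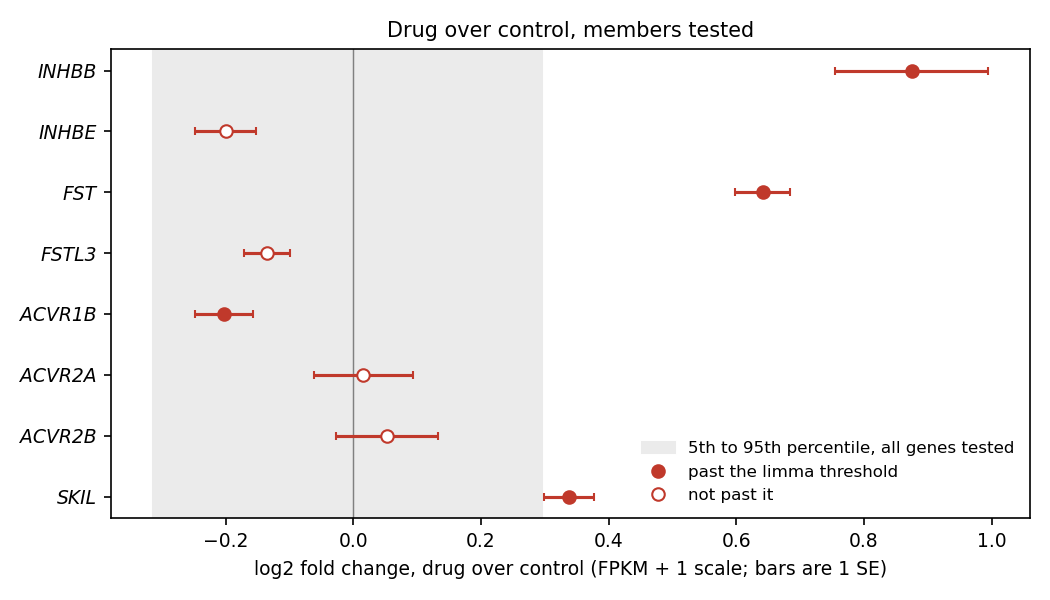
Log2 fold change of drug over control on the FPKM + 1 scale for the 8 members tested, with bars of 1 SE, filled points for those past the limma threshold and the grey band from the 5th to the 95th percentile of all genes tested (-0.31 to 0.30). INHBB, FST and SKIL lie to the right of the band, and ACVR1B is called from within it.

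Both drug libraries were above both controls for 3 of the 8 members tested, where 40.3% of all genes tested were, and below for 3 (INHBE, FSTL3 and ACVR1B), where 23.3% were. Non-overlap was therefore common in this table. The median log2 fold change of the 8 members was 0.03, against 0.04 for all genes tested. With edgeR on recovered reads the same 4 members were past an adjusted p of 0.05, where 13.0% of genes were. In the authors' deposited table the adjusted p was also under 0.05 for those 4, where 7.21% of genes were. Every member except INHBB is marked STABLE there, and of all 26603 genes 42 are marked UP and 91 DOWN.

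By level, the order with drug was FST, SKIL, ACVR1B, FSTL3, INHBE, INHBB, ACVR2B, ACVR2A, INHBC and INHA, and no neighbours in it overlapped between libraries. ACVR1B and FSTL3 were nearly level, at 12.1 ± 0.642 and 11.4 ± 0.318 FPKM. In control INHBB stood seventh rather than sixth, and ACVR2B (1.70 ± 0.166 FPKM), INHBB (1.67 ± 0.427 FPKM) and ACVR2A (1.47 ± 0.0748 FPKM) overlapped as neighbours. The other positions were the same. The 10 members summed to 125.5 and 126.3 FPKM in drug libraries, against 96.3 and 100.3 FPKM in control libraries, and FST alone was 52.9% and 51.1% of that sum with drug and 41.6% and 43.0% in control.

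The genes lie on 5 chromosomes in GRCh38: INHBB (2, 120346143 to 120351808), ACVR2A (2, 147844517 to 147930826) and INHA (2, 219569162 to 219575713) on the first, ACVR2B (3, 38453851 to 38493142) and SKIL (3, 170357678 to 170396835) on the next, then FST (5, 53480409 to 53487134), ACVR1B (12, 51951667 to 51997078), INHBC (12, 57434760 to 57450828) and INHBE (12, 57452323 to 57459280), and FSTL3 (19, 676365 to 683399). All are on the plus strand. Of the 18 tested genes that lie nearest on either side of a member, 1 passed the limma test, where 13.8% of all genes tested did. It was NR4A1, an orphan nuclear receptor gene 25.8 kb beyond ACVR1B, which fell to 8.64 ± 0.914 FPKM with drug, against 14.1 ± 0.768 FPKM in control (log2 fold change -0.65 ± 0.08 SE, limma adjusted p = 0.0110; 0.0639 without the filter on low values). RALB, 51.4 kb before INHBB, had a log2 fold change of 0.10 (limma adjusted p = 0.0648), and NDUFS4, 73.5 kb after FST, one of 0.05 (0.497).

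Likeness was measured as the Euclidean distance between log2(FPKM + 1) values over the 4 libraries, each gene centred on its own mean. Nearest to INHBB was APOBEC3B, a cytidine deaminase gene, at a distance of 0.0181, with 3.99 and 3.84 FPKM in drug libraries against 1.39 and 2.01 FPKM in control libraries. RNU7-3P (0.140), MYL9 (0.168), S100A3 (0.177) and GAD1 (0.179) came next, at clearly larger distances. Nearest to FST were OLFML2A (0.0187), RDH10 (0.0360), ELOVL2 (0.0496), SSX2 (0.0534) and SLC4A7 (0.0569). SSX2 has a near-identical copy, SSX2B, so its level is uncertain. RDH10, a retinol dehydrogenase gene, had 28.1 and 28.1 FPKM in drug libraries against 17.2 and 18.7 FPKM in control libraries. With 4 libraries such distances describe these libraries only.

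The rest of the pathway was read from a list of 56 genes that holds no member, of which 50 were in the table and 36 were tested. Of these, 3 rose and 6 fell, where 7.78% of all genes tested rose and 6.02% fell, and the median log2 fold change was 0.03, against 0.04 for all genes tested. Among receptors, TGFBR2, the type II receptor of TGF-beta, rose to 35.5 and 36.3 FPKM in drug libraries, against 24.1 and 24.3 FPKM in control libraries (log2 fold change 0.55 ± 0.03 SE, limma adjusted p = 0.00152). Both drug libraries were far above the controls. TGFBR1, its partner, had 7.02 ± 0.158 FPKM with drug and 6.93 ± 0.0656 FPKM in control (limma adjusted p = 0.788). ACVR1, a type I receptor that serves BMPs and binds activins, had 3.71 ± 0.0144 FPKM with drug and 3.37 ± 0.0364 FPKM in control (limma adjusted p = 0.196). ACVR1C, the type I receptor ALK7, had 6 and 6 reads in drug libraries and 4 and 16 reads in control libraries, so of the ALK4 and ALK7 genes ACVR1B was the only one above 1 FPKM.

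FURIN, a protease that cuts ligand precursors to their mature form, fell to 202 and 208 FPKM in drug libraries, against 245 and 250.4 FPKM in control libraries (log2 fold change -0.27 ± 0.03 SE, limma adjusted p = 0.0080). Among the 17 signal carriers and regulators tested, 1 rose and 2 fell, where 7.78% of all genes tested rose and 6.02% fell. SMAD3 rose to 12.7 ± 0.297 FPKM with drug, against 11.2 ± 0.226 FPKM in control (log2 fold change 0.17 ± 0.04 SE, limma adjusted p = 0.0434). SMAD2 had 2.76 ± 0.0345 FPKM with drug and 2.64 ± 0.00442 FPKM in control (limma adjusted p = 0.581), and SMAD4 had 3.04 ± 0.0331 and 2.87 ± 0.115 FPKM in drug and control libraries (0.505). Neither passed the test. USP9X, a deubiquitinase that acts on SMAD4, fell to 35.2 ± 0.0714 FPKM with drug, against 43.1 ± 0.613 FPKM in control (limma adjusted p = 0.0065). SMAD6, an inhibitory SMAD of the BMP branch, fell to 5.17 ± 0.443 FPKM, against 6.79 ± 0.419 FPKM in control (limma adjusted p = 0.0405). SMAD7, the inhibitory SMAD that pathway activity induces, had 5.44 and 5.56 FPKM in drug libraries, against 6.50 and 6.12 FPKM in control libraries. Drug was below control for SMAD7 without passing (log2 fold change -0.17 ± 0.05 SE, limma adjusted p = 0.0756).

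Target genes went both ways: of 5 tested, 1 rose and 3 fell, where 7.78% of all genes tested rose and 6.02% fell. ID1, mainly a BMP target, fell to 203 and 218 FPKM, against 339 and 350.4 FPKM in control libraries (log2 fold change -0.71 ± 0.04 SE, limma adjusted p = 0.0020). JUNB fell to 29.7 ± 0.917 FPKM with drug, against 33.9 ± 1.30 FPKM in control (limma adjusted p = 0.0458). TGFBI, named for its induction by TGF-beta, rose to 44.4 ± 0.164 FPKM with drug, against 40.3 ± 0.446 FPKM in control (limma adjusted p = 0.0342). HAMP, the hepcidin gene that activin B is known to induce in liver cells, had 0 and 0 reads in drug libraries and 6 and 10 reads in control libraries, too few to test. PMEPA1 was not analysed here. SMAD3, SMAD6, JUNB and TGFBI lost their calls without any 1 of the 4 libraries (adjusted p from 0.0657 to 0.173), while TGFBR2, FURIN, USP9X and ID1 kept theirs. With TMM-scaled FPKM SMAD3 (adjusted p = 0.0645) and TGFBI (0.0965) were not called, and edgeR on recovered reads did not call TGFBI (0.0732).

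**Figure D4:**
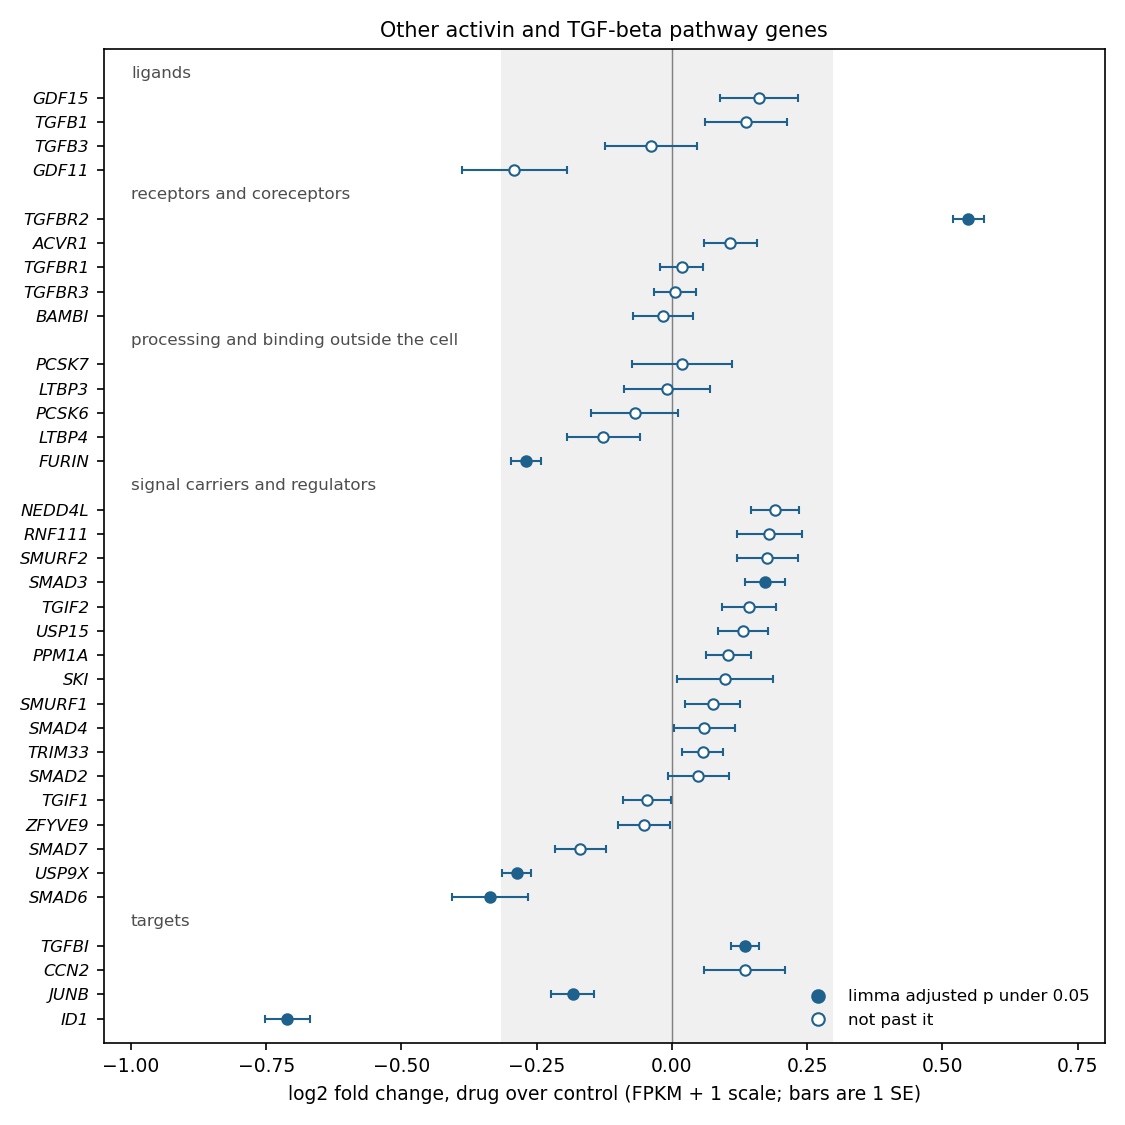
Log2 fold change of drug over control (FPKM + 1 scale, bars of 1 SE) for tested pathway genes that are not members, grouped by role, with filled points where the limma adjusted p is under 0.05 and the grey band as the 5th to 95th percentile of all genes tested. A called gene whose values are not reported here is left out of the plot. Among the points shown, TGFBR2 is the one right of the band, and ID1 lies farthest to the left.

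ATF4, a stress-response transcription factor to which INHBE is known to respond, belongs to a list of 12 genes, of which 11 were in the table. Of the 9 tested, 1 rose and 5 fell, where 7.78% of all genes tested rose and 6.02% fell, and the median log2 fold change was -0.14, against 0.04 for all genes tested. The gene that rose was ATF5, and the largest fall was that of DDIT4, to 55.6 ± 0.333 FPKM with drug, against 99.0 ± 1.17 FPKM in control (limma adjusted p = 0.000649). ATF4 itself fell to 131 ± 0.637 FPKM with drug, against 144 ± 2.19 FPKM in control (limma adjusted p = 0.0347). CHAC1 fell to 6.12 ± 0.367 FPKM, against 7.53 ± 0.280 FPKM in control (limma adjusted p = 0.0403), while TRIB3 (5.46 ± 0.580 FPKM with drug and 6.11 ± 0.256 FPKM in control) and DDIT3 (10.9 ± 0.119 FPKM with drug and 10.1 ± 1.04 FPKM in control) did not pass (limma adjusted p = 0.246 and 0.369). ASNS was below the filter. With a replicate block ATF4 (limma adjusted p = 0.0639), SLC7A11 (0.0708) and ATF5 (0.0702) were not called. Without any 1 library ATF4 (adjusted p from 0.0918 to 0.144), CHAC1 (0.0736 to 0.135), SLC7A11 (0.0703 to 0.132) and ATF5 (0.0525 to 0.139) were no longer called. Of the 5 that fell, 2 (DDIT4 and PSAT1) kept their calls whichever library was left out. Whether these genes bear on INHBE was not tested.

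Control 1 held 28526098 gene reads, and the other libraries held 38611635 to 40279560. Of 11 hepatocyte and liver cancer markers, 8 were at 1 FPKM or more in a group, among them HNF4A, FGB, TF, KRT8 and KRT18. Of these 8, 3 rose and 4 fell, where 7.78% of all genes tested rose and 6.02% fell. ALB, the albumin gene, fell to 1.31 and 1.32 FPKM with drug, against 3.15 and 3.23 FPKM in control (limma adjusted p = 0.0039). AFP stayed at or below 0.449 FPKM, APOB at or below 0.0384 FPKM and TTR at 0 reads in 3 libraries and 2 reads in control 2. Of 19 markers of fibroblasts, endothelium, leukocytes and bile duct cells 15 were in the table and 4 were tested, of which LYZ, the lysozyme gene, rose and PECAM1 fell. Their summed level was 289 and 294 FPKM with drug and 190.0 and 192 FPKM in control, nearly all of it LYZ, while VWF was at 0 reads in 3 libraries. The part of these markers in the members' values was not tested.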

How the data were processed

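Trizol was used to extract RNA, and stranded mRNA libraries were made by an Illumina guide, per the labels' protocols. The submitters' processing notes name bcl2fastq and the build hg38, with the aligner, the counter and the annotation each not given in the sources used here. A single table was deposited by the authors, with values for 26603 genes. Its 4 library columns hold FPKM made by the authors, a unit recognised from their whole-read steps; those without the word drug in their names were taken as control, by name and number. Its group columns are a deposited signal, the mean of reads divided by a size factor per library. Its log2 fold change and p-value columns hold the comparison made by the authors, per the file headers. No per-library column of values was left unused. Every gene has a read in a control library and 2073 have none with drug, so a gene read with drug only was not analysed here.

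The members, gene lists and tests were chosen with earlier results of these data known. Named genes were all members, the called genes of the pathway list, 10 genes of it and 5 of the ATF4 list fixed by name, and the 5 nearest profiles to INHBB and to FST. The values of 1 called pathway gene, counted among those that fell, are not reported here. Genes added after their values were seen were NR4A1, RALB, NDUFS4, ORC4, TGFBR1, SKI, ATF5, DDIT4, PSAT1, SLC7A11 and the markers. The test was limma 3.58.1, with its trend option, on log2(FPKM + 1) of all 4 libraries for genes whose mean reached 1 FPKM in either group, with Benjamini-Hochberg adjustment over 11227 genes and a threshold of 0.05. Read numbers in each library were worked back from its FPKM and the group means. They lay within 0.1 of a whole read for 100% of values above 0, and served edgeR 4.0.16 and DESeq2 1.42.0 as alternatives. DESeq2 on these reads gave log2 fold changes within 0.0001 of the deposited ones. Other alternatives were a pseudocount of 0.1, no filter, a replicate block, TMM-scaled FPKM and each library left out, where the lone library is assumed to vary like the other group. P-values measure the spread between these libraries only. Read recovery and fits were tested on simulated data. Gene positions are from GENCODE 29, where the exons of INHBC cover 1992 bases, against 3202 bases implied by its FPKM and reads. The software was Python 3.11.15 with scipy 1.17.1, pandas 2.3.3, numpy 2.4.6 and matplotlib 3.10.9, and R 4.3.3.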

Additional observations from a re-analysis of the deposited data

How the results depend on the processing

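Of 83 member log2 fold changes under the alternatives, 78 kept the sign of the reported value. Of the same 83, 70 moved by less than 1 SD between libraries. The other 5 signs were those of ACVR2A and ACVR2B, neither of them called. Dropping the filter or adding the replicate block cannot change a tested member's log2 fold change. Those values therefore kept sign and size by construction. The fit called 873 genes as higher and 676 as lower (56.4% higher). Without the filter on low values 170 and 214 were called, and with the replicate block 474 were called higher. With TMM-scaled FPKM 543 were called higher, with 39.4% of calls higher. EdgeR on recovered reads called 1195 lower (44.4% of calls higher) and DESeq2 1222 lower. With 1 library left out, so that fewer libraries entered the fit, 167 to 298 genes were higher and 253 to 315 lower. Of the pathway list 3 genes rose, but 1 (TGFBR2) without the filter, with the replicate block and with TMM-scaled FPKM. On the same list 6 fell, as they did with the block and with TMM-scaled FPKM. Without the filter 4 fell, and JUNB (limma adjusted p = 0.141) and SMAD6 (0.146) were not called. Members called were 4 of 8 tested, where 13.8% of all genes were called, but 1 of 10 (FST) without the filter, where 1.44% were. With the block 3 of 8 were called, ACVR1B being lost, where 8.24% of all genes were. With TMM-scaled FPKM 6 of 8 were called, where 12.3% were. With a library left out the log2 fold change was 0.71 to 1.04 for INHBB and 0.59 to 0.69 for FST. It was 0.31 to 0.37 for SKIL and -0.25 to -0.15 for ACVR1B. The cause of these shifts was not tested. Same-numbered libraries did not deviate together (correlation 0.028), so the block rests on a shared number only. Reads limit INHA and INHBC, and with 2 libraries in a group no outlier test was run.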
